A study of Mus musculus with 54 samples.

Results

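Monocyte and lymphocyte chemokines are the subject here, a set of 9 genes listed by symbol among the 23481 genes of the expression table: Ccl2, Ccl7, Ccl5, Ccl20, Cxcl10, Cxcl12, Cxcl16, Cx3cl1 and Csf1. All 9 were found in the table, and 8 passed the filter on low values over the clones. Cxcl12 did not. RNA-seq had been made from 4T1 cells, a mouse mammary carcinoma line that spreads from the mammary gland to the lung, in a search for genes that go with intravasation, in which tumor cells pass into the circulation. The 54 libraries came from 2 lung metastases (Lung_1 and Lung_2), 2 orthotopic tumors (Tumor_1 and Tumor_2) and 23 clones, with 2 libraries, lettered A and B, of each. Each clone had been grown from a single sorted cell, and each clone is therefore 1 line. The labels call clones 4T1-E and 4T1-T intravasating, as judged in a pool of clones, and the other 21 clones non-intravasating. All samples carry 4T1 as their source. No genotype, treatment or time is given in the labels, and neither the age of the mice nor a step that separated tumor cells from mouse tissue is stated there. Whether libraries A and B of a clone stem from different cultures is not stated either, so a p-value based on libraries may reflect only technical spread.

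Chemokines are small secreted proteins that guide leukocytes along a gradient by binding G protein-coupled receptors on their surface. Ccl2 and Ccl7 bind Ccr2 and draw monocytes out of the marrow and into tumors, and Csf1, a cytokine and not a chemokine, binds Csf1r and keeps monocytes and macrophages alive and dividing. Ccl5 binds Ccr1 and Ccr3, among others, Cxcl10 binds Cxcr3, Cxcl16 binds Cxcr6 and Ccl20 binds Ccr6, and all of these receptors are carried by subsets of lymphocytes. Cx3cl1 and Cxcl16 are made as membrane proteins with a chemokine head, and are shed by the proteases Adam10 and Adam17. In mouse tumors the Ccl2 and Csf1 axes are known for recruiting and maintaining macrophages, and Cxcl10 is a textbook target of interferon.

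The stretch around the transcription start is shown for the 3 genes whose promoters held a match to a motif of inducible inflammatory transcription, since Cxcl10 and Ccl20 were highest in the same clone and Csf1 was highest in the tumors. Promoters came from RefSeq (GRCm38.p6), which had 5 of the 9 genes, namely Ccl20, Csf1, Cxcl10, Cxcl12 and Cx3cl1. Each runs 5′ to 3′ on the gene's strand, from 250 bases before the start to 50 bases after it. Capitals mark matches on either strand to the interferon-stimulated response element core GAAANNGAAA or to the kappaB consensus, the binding pattern of the NF-kB family. Both motifs were chosen after the sequences had been seen.
Cxcl10: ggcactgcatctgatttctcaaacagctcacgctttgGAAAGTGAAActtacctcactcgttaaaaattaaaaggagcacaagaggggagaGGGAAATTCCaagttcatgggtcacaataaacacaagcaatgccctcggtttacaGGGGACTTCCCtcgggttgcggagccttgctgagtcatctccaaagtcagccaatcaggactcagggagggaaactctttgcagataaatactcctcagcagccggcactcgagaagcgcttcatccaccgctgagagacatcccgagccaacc
Ccl20: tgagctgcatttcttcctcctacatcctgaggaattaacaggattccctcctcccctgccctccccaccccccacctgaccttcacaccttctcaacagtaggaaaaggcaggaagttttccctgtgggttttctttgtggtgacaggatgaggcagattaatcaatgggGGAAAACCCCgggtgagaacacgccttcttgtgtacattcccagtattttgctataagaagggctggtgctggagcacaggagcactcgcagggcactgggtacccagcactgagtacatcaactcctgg
Csf1: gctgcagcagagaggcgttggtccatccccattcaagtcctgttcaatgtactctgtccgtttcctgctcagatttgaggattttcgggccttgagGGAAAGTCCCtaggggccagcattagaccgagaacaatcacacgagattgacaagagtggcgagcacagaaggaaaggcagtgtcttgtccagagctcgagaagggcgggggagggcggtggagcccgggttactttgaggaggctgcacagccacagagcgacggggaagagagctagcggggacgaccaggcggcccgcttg
The Cxcl10 stretch is chr5:92348840-92349139 on the minus strand, the Ccl20 stretch is chr1:83116516-83116815 on the plus strand, and the Csf1 stretch is chr3:107760420-107760719 on the minus strand. Cxcl10 had 1 response element match, 213 to 204 bases before the start, and 3 kappaB matches, of which the 2 nearest the start overlapped. Ccl20 had 1 kappaB match, 80 to 71 bases before the start, and Csf1 had 1, at 154 to 145 bases. No match was present in the windows of Cxcl12 and Cx3cl1. Among all 32851 RefSeq promoters of this length, 3.44% held the response element core, 11.2% the kappaB consensus and 0.362% both. A match describes these letters and is not evidence of binding.

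Libraries of the lung metastases held 16327693 to 20368740 reads, those of the tumors 12183058 to 17369960 and those of the clones 8849257 to 31609870. The A libraries of the lung metastases stood apart, with 20278 and 19868 genes with a read against 16604 and 16972 in their B libraries, so low values there are less certain. The summed level of 5 markers of carcinoma epithelium (Epcam, Krt8, Krt18, Krt19 and Cdh1) was 15333 to 21774 normalized counts in the lung metastases, 23560 to 26361 in the tumors, and 14218 to 70780 in the clones, and none of the 5 was at 0 in any group. Sums of most sets of host cell markers lay above the clone median in the specimens. The 14 markers of macrophages and monocytes summed to 1432 and 3156 normalized counts in the lung metastases and to 835 and 1047 in the tumors, against a median of 178 and a highest value of 583 in the clones. Pan-leukocyte markers summed to 127 and 352 in the lung metastases and to 77.9 and 91.7 in the tumors, against a clone median of 15.2 and a highest value of 265, in 4T1-G. The 7 neutrophil markers summed to 54.9 and 65.7 in the lung metastases and to 37.4 and 43.9 in the tumors, against a clone median of 11.9 and a highest value of 1051, in 4T1-G. Of 4 tested neutrophil markers, 0 passed in tumors or in lung metastases against clones. The 7 fibroblast markers summed to 1623 and 4143 in the lung metastases and to 629 and 728 in the tumors, against a clone median of 327 and a highest value of 1796, and the 8 endothelium markers to 60.3 and 79.3 in the lung metastases and to 36.8 and 54.0 in the tumors, against a clone median of 14.5 and a highest value of 56.2. Markers of T, B and NK cells were low. The 7 T cell markers summed to 21.5 and 22.7 in the lung metastases and to 9.70 and 12.4 in the tumors, the 4 B cell markers to at most 8.08 and the 5 NK cell markers to at most 3.52 in any specimen.

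The 23 clones differed in these genes by more than their libraries did. In a moderated F-test (limma, adjusted over all genes), all 8 tested genes passed, where 95.1% of the 13637 tested genes did so too, so passing this test sets nothing apart. On the deposited log2 scale the SD between clones was 1.75 for Ccl2, 1.40 for Cxcl16, 0.94 for Ccl5, 0.81 for Cxcl10, 0.78 for Cx3cl1, 0.73 for Ccl7, 0.62 for Ccl20 and 0.56 for Csf1, against 0.29 for the median gene. A spread between clones as large as that of Ccl2 was reached by 0.205% of the tested genes, and one as large as that of Csf1 by 10.7%. Compared per kilobase of exon, the median clone had most Csf1, with 768 normalized counts per kilobase, followed by Cx3cl1 with 200.2, Ccl5 with 153, Cxcl16 with 146, Ccl2 with 144 and Cxcl10 with 35.0. Ccl7, with 5.75, and Ccl20, with 2.24, were low in the median clone.

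**Figure D1:**
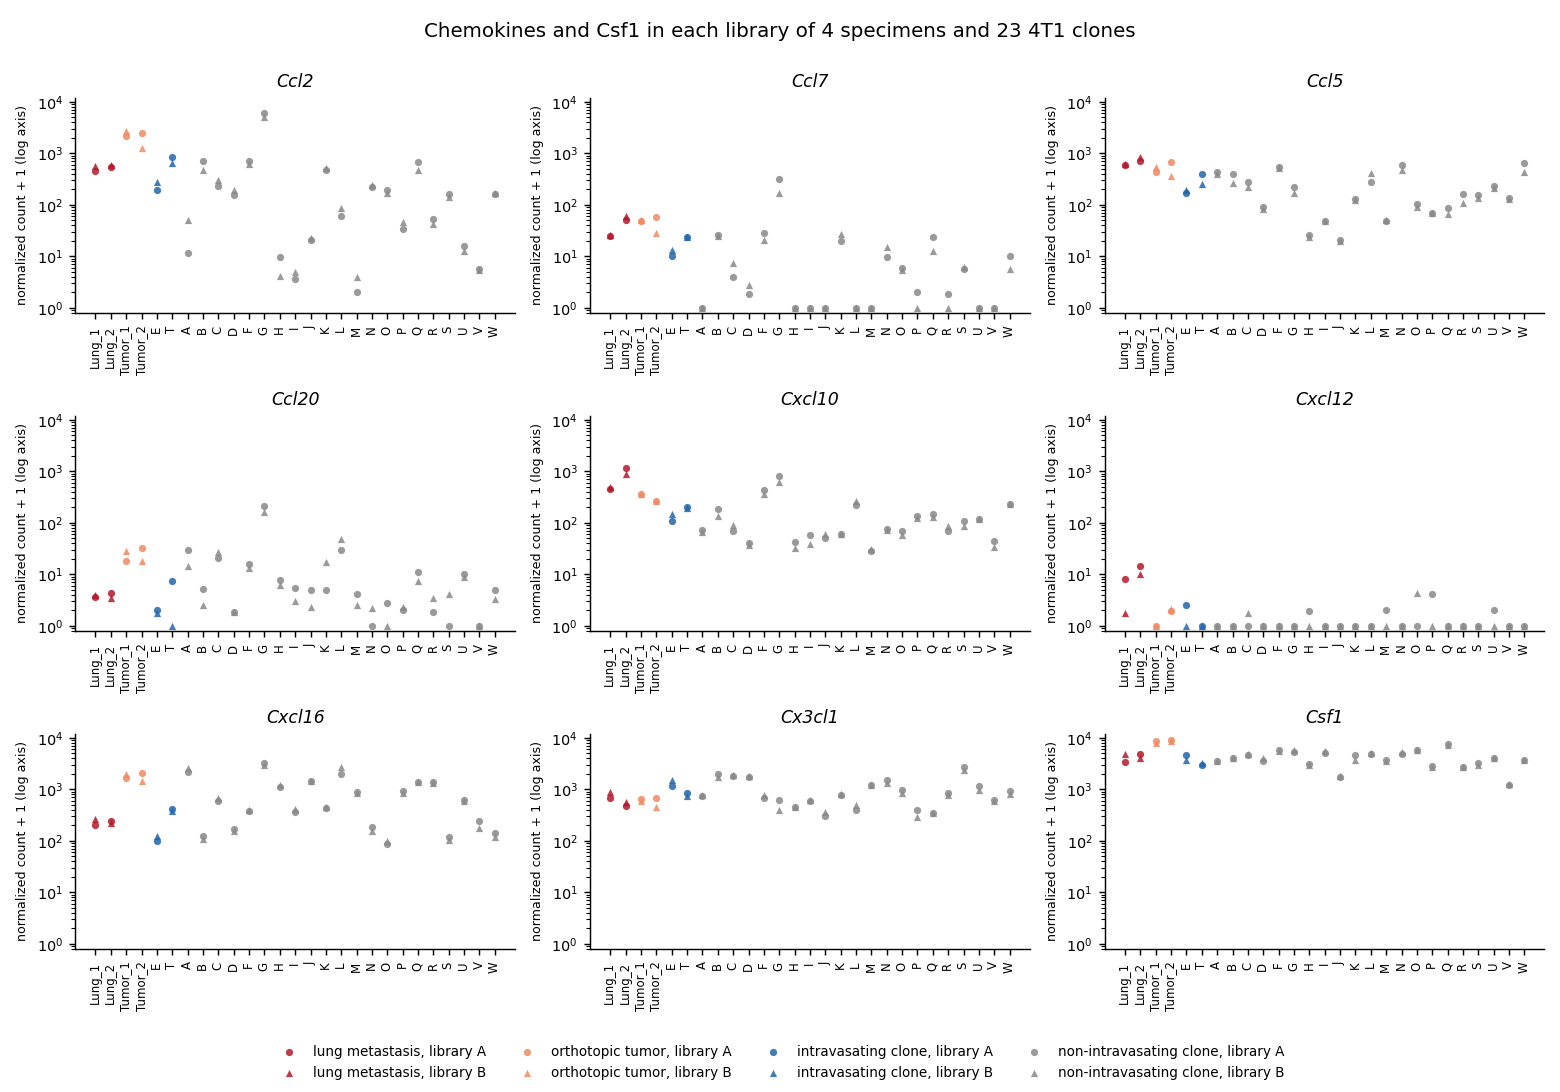
Normalized count + 1 (log axis) of each of the 9 genes in each library, with lung metastases, tumors, the 2 intravasating clones and the 21 non-intravasating clones from left to right; circles are A libraries and triangles B libraries. Clone 4T1-G stands highest among clones in Ccl2, Ccl7, Ccl20, Cxcl10 and Cxcl16, Csf1 varies least, and Cxcl12 lies at or near 0 reads in all clones.

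Ccl2, at chr11:82035571-82037453 on the plus strand (GENCODE vM21 on GRCm38, the assembly also called mm10), encodes the main monocyte attractant. It had 6095 and 5032 normalized counts in the libraries of clone 4T1-G. Clone 4T1-T followed with a mean of 751, 4T1-F with 672, 4T1-B with 596, 4T1-Q with 582 and 4T1-K with 497. The median clone had 164, and the lowest, 4T1-M, had 2.04. Clone 4T1-G was thus 7.41 times the next clone and its libraries did not overlap those of any other clone. Below it the order was less sharp, and in 14 of the 22 neighbouring pairs the ranges of the libraries overlapped. Ccl2 passed 100 normalized counts in 13 clones and lay under 10 in 4 clones, 4T1-H, 4T1-V, 4T1-I and 4T1-M.

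Ccl7, a further ligand of Ccr2, lies 8258 bases downstream of Ccl2 on the same strand, at chr11:82045712-82047525. It had 321 and 172 normalized counts in the libraries of 4T1-G, 10.1 times the next clone, 4T1-B, with a mean of 24.5. Clones 4T1-F, 4T1-T, 4T1-K and 4T1-Q came next, with 23.9, 23.1, 22.6 and 17.2. The median was 4.61, and 8 clones had 0 reads in both libraries, which allows up to 3 reads in each. The clones at the top of the Ccl2 order were also those at the top of the Ccl7 order, and over the 23 clones the genes correlated with a Pearson r of 0.94 and a Spearman rho of 0.94. Without 4T1-G and 4T1-M, the clones farthest from the median of Ccl2, r was 0.95. This correlation, like the others between clones, is a description over points that share a cell line and a library preparation.

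Csf1, the macrophage growth factor, at chr3:107741048-107760469 on the minus strand, was the steadiest of the 8 tested genes. It had a mean of 7387 normalized counts in 4T1-Q, 5856 in 4T1-O, 5664 in 4T1-F and 5465 in 4T1-G, a median of 4058, and 1224 in the lowest clone, 4T1-V. The highest clone was 6.04 times the lowest. Cx3cl1, which encodes fractalkine, an adhesive ligand of Cx3cr1 on monocytes, lies at chr8:94772009-94782427 on the plus strand. It stood at 2760 and 2404 in 4T1-S, then at means of 1875 in 4T1-C, 1845 in 4T1-B and 1754 in 4T1-D, with a median of 787 and the lowest value, 334, in 4T1-J. Clone 4T1-S did not overlap the next clone. Clone 4T1-G was only at rank 18 for Cx3cl1, with 507.

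Ccl5, also called RANTES, an attractant of T cells and macrophages, lies at chr11:83525778-83530518 on the minus strand. Clones 4T1-W, 4T1-N and 4T1-F led with means of 547, 538 and 528 normalized counts, and their library ranges overlapped. The median was 147 and the lowest clone, 4T1-J, had 19.3. Clone 4T1-G, which led in 5 genes of the set, was at rank 10 with 196. Cxcl10, the interferon-inducible ligand of Cxcr3 on activated T cells and NK cells, lies at chr5:92346638-92348889 on the minus strand. It had 820 and 622 in 4T1-G and 430.2 and 354 in 4T1-F, without overlap. The clones 4T1-L and 4T1-W followed with means of 243 and 230.0, the median was 78.8, and 4T1-M was lowest with 29.0.

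Cxcl16, the membrane-bound ligand of Cxcr6, lies at chr11:70453983-70459984 on the minus strand. It had means of 3051 in 4T1-G, 2368 in 4T1-L and 2323 in 4T1-A, a median of 441, and 90.7 in the lowest clone, 4T1-O. The highest clone was 33.6 times the lowest. Its order was the clearest of the set, with overlap in 10 of the 22 neighbouring pairs. Ccl20, the ligand of Ccr6, lies at chr1:83116766-83119167 on the plus strand and was low in most clones. It had 208 and 160.0 normalized counts in 4T1-G, 4.84 times the next clone, 4T1-L, whose libraries had 28.4 and 47.8. Only 5 clones passed 10, namely 4T1-G, 4T1-L, 4T1-C, 4T1-A and 4T1-F. The median was 3.18, and 4T1-V had 0 reads.

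Cxcl12, the stromal ligand of Cxcr4 and Cxcr7, lies at chr6:117168535-117181367 on the plus strand. It had 0 reads in 39 of the 46 clone libraries and at most 3 reads in any of them. In the lung metastases it had 8 reads in the A library and 1 in the B library of Lung_1, and 16 and 11 in those of Lung_2. Tumor_2 had 1 read in each library and Tumor_1 had 0. A count of 0 allows up to 3 reads, which is 1.53 to 5.85 normalized counts depending on the library. Cxcl12 was therefore not detectable at this depth in most clones, and it was not in the main tests. With the filter dropped it was called in lung metastases against clones, a setting in which 7978 of all genes were. The fibroblast and endothelium markers, of cells that make this ligand, had sums above the clone median in the lung metastases, and their part in its reads was not tested.

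Clone 4T1-G was the highest clone for 5 of the 8 tested genes, Ccl2, Ccl7, Ccl20, Cxcl10 and Cxcl16, where 11.9% of all tested genes were highest in that clone. The other 3 were highest in 4T1-W (Ccl5), 4T1-S (Cx3cl1) and 4T1-Q (Csf1). Some genes on the lists of leukocyte markers were also high in 4T1-G, itself a line grown from a single sorted cell. Its summed macrophage and monocyte markers were the highest of any clone at 583 normalized counts, of which Cd68 made up 488, and its 7 measured neutrophil markers summed to 1051, of which S100a8 made up 855. Its 4 pan-leukocyte markers summed to 265, also the highest of any clone, of which Cd53 made up 239, while Laptm5 reached at most 0.976 in any clone. Among the macrophage markers, C1qa was at 0 in all clones, C1qb reached at most 0.557 and C1qc 0.437 in any clone, and Lyz2 reached at most 6.48, in 4T1-F. The clone's summed carcinoma epithelium markers were the lowest of the 23 clones, at 14218. The relation of these marker genes to the levels of the chemokines was not tested.

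Among the 28 pairs of tested genes, 5 had a rho of at least 0.5 over the clones and 1 had a rho of -0.5 or below. Besides Ccl2 with Ccl7, the positive pairs were Ccl2 with Cxcl10 (rho 0.67), Ccl20 with Cxcl16 (rho 0.63), Ccl5 with Cxcl10 (rho 0.63) and Ccl7 with Cxcl10 (rho 0.62). Without 4T1-G, the r of Ccl2 with Cxcl10 was 0.58, against 0.73 over all clones, and that of Ccl7 with Cxcl10 was 0.52, against 0.73. The r of Ccl20 with Cxcl16 was 0.62 without that clone, against 0.65 with it, and that of Ccl5 with Cxcl10 was 0.67, against 0.56. The negative pair was formed by the transmembrane chemokines: Cxcl16 and Cx3cl1 had an r of -0.64 and a rho of -0.66, and r was -0.60 without 4T1-G and 4T1-L, the clones farthest from the median of Cxcl16. Clones 4T1-S, 4T1-B and 4T1-D had 110, 116 and 159 normalized counts of Cxcl16 beside 2582, 1845 and 1754 of Cx3cl1. Clones 4T1-J, 4T1-Q and 4T1-L had 1452, 1396 and 2368 of Cxcl16 beside 334, 343 and 446 of Cx3cl1. Clone 4T1-C was high in Cx3cl1 (1875) at a middling Cxcl16 (629).

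**Figure D2:**
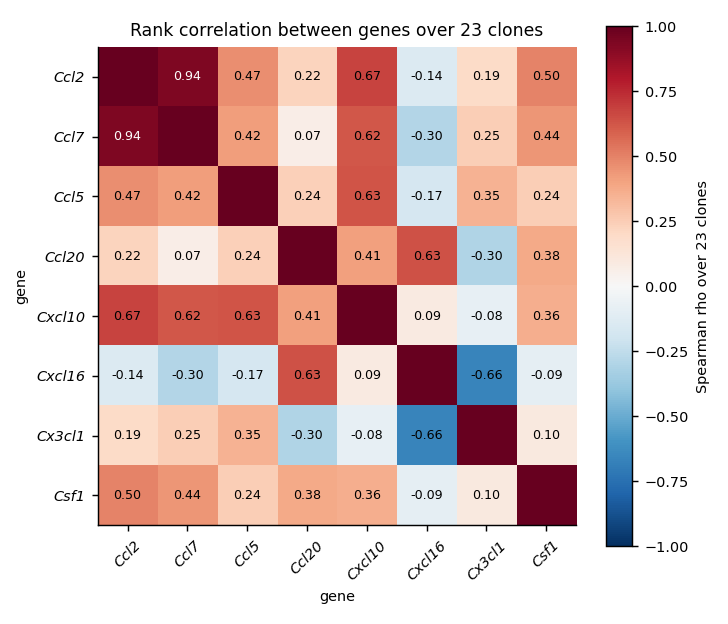
Spearman rho between the 8 tested genes over 23 clones, with red for positive and blue for negative values and rho printed in each cell. Ccl2 and Ccl7 have the highest value (0.94), and Cxcl16 and Cx3cl1 have the lowest (-0.66).

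**Figure D3:**
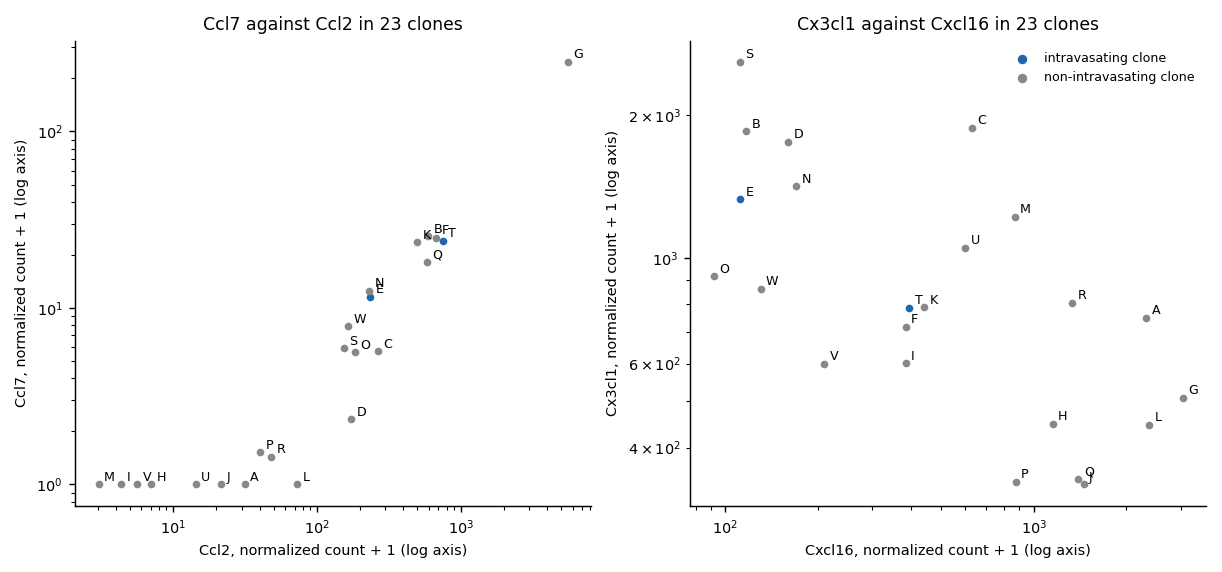
Ccl7 against Ccl2 (left) and Cx3cl1 against Cxcl16 (right) in 23 clones, each point the mean normalized count of 2 libraries plus 1, on log axes, with the clone's letter. Ccl7 lies at 0 reads (a plotted value of 1) in the 8 clones at the lower left and follows Ccl2 above them, with 4T1-G far beyond the rest, and clones with much Cxcl16 tend to lie low in Cx3cl1.

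Other genes tracked members over the clones. The 5 genes with the highest rho to Ccl5, among tested genes whose clone mean was 50 normalized counts or more, were Oasl2 (0.83), Isg15 (0.80), Gbp2b (0.80), Ddx60 (0.79) and Oas3 (0.78), all of which are interferon-induced. All 5 were highest in 4T1-G, and their r with Ccl5, which that clone did not lead, was between 0.41 and 0.72. The genes most like Ccl20 were Il1a (0.82), Ccrn4l (0.78), Cxcl1 (0.78), Etv3 (0.77) and Sik1 (0.77), of which Il1a encodes an interleukin-1 and Cxcl1 a neutrophil chemokine. Ccl7 was most like Ccl2, then Casp4 (0.86), an inflammatory caspase, and Ogfr (0.83). Ccl2 had Ogfr (0.76), Casp4 (0.76) and Birc3 (0.75), an inhibitor of apoptosis in NF-kB signalling, at the head of its list.

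Cxcl10 had 2610020H08Rik (0.77), Tlr2 (0.76), a receptor for bacterial lipoproteins, and Gbp3 (0.69), an interferon-induced GTPase, as its nearest genes. Cxcl16 was most like Ppm1j (0.93), the stress-induced transcription factor Atf3 (0.92), Galnt3 (0.91) and 5830416P10Rik (0.91). Cx3cl1 went with the potassium channel Kcnk5 (0.87), Prex1 (0.87), an activator of Rac, Cpne2 (0.87), Fmnl3 (0.85) and Rab3d (0.85). The highest rho for Csf1 were those of Rab30 (0.78), BC005624 (0.77) and Tor1b (0.73).

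Pathway lists showed which members moved with interferon genes. Over the 28 tested genes of the interferon list, the median rho was 0.60 with Ccl5, 0.57 with Ccl7, 0.56 with Ccl2 and 0.44 with Cxcl10, whereas the median over all tested genes lay between -0.023 and 0.020 for each of the 8 genes. The same median was 0.30 with Csf1, 0.24 with Cx3cl1, 0.13 with Ccl20 and -0.17 with Cxcl16. The 24 genes of the NF-kB list had their highest median rho with Ccl20, at 0.43, followed by Cxcl16 at 0.30. For the 5 carcinoma epithelium markers the median rho was 0.62 with Cxcl16, and it was -0.53 with both Ccl2 and Ccl7. The interferon list includes Cxcl9 and Cxcl11, which are chemokines themselves.

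The comparison of intravasating with non-intravasating clones asks which genes mark the clones that enter the blood. Values of the 2 intravasating clones lay inside the range of the 21 others for each of the 8 tested genes. Ccl2 had 233 normalized counts in 4T1-E and 751 in 4T1-T, against 2.04 to 5564 with a median of 152 in the others. Cxcl10 had 127 and 199.7 in the intravasating clones, against 29.0 to 721 with a median of 76.7. Cxcl16 had 111 and 394, against 90.7 to 3051 with a median of 600.0. In limma's test on 1 value per clone, 0 of the 8 genes passed, against 0% of all 13637 tested genes (0 genes passed, and 109 had an unadjusted p under 0.05). The differences, intravasating minus non-intravasating, were 1.39 ± 1.20 (SE) for Ccl2 and -1.13 ± 0.95 for Cxcl16, and all 8 adjusted p-values were 1.00. The median difference of the 8 was 0.38, against 0.0036 over all tested genes. Leaving out 4T1-E turned the difference of Cx3cl1 from 0.30 to -0.048, and leaving out 4T1-T turned that of Csf1 from -0.10 to 0.095.

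A looser rule that the study's design describes counts a gene where both intravasating clones differ in the same direction from at least 11 of the 21 others. It was applied here with limma contrasts on libraries. Ccl7 and Cxcl10 were higher by this rule, 2 of 8 genes against 2.14% of all genes, and Cxcl16 was lower, 1 of 8 against 1.61%. Ccl7 was higher in 4T1-E than in 11 and in 4T1-T than in 15 of the others, and Cxcl10 than in 12 and 16. Cxcl16 was lower in 4T1-E than in 17 and in 4T1-T than in 11. Ccl2 missed the rule by 1 clone, with 10 for 4T1-E and 16 for 4T1-T. Ccl7 itself was at 10.6 and 23.1 normalized counts in the intravasating clones, against a median of 1.34 in the others, a low level at which few reads decide the count. Without library B of 4T1-E, 1 of the 8 genes was called in place of 3.

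The 2 intravasating clones differed from each other in most of these genes. Relative to 4T1-T, 4T1-E was higher in 2 of the 8 genes, where 15.3% of all genes were, and lower in 4, where 13.4% were, and the median difference of the 8 was -0.43 against 0.0071 over all genes. Cx3cl1 had 1142 and 1514 normalized counts in the libraries of 4T1-E against 838 and 735 in those of 4T1-T, a log2 difference of 0.70 ± 0.14 (SE, adjusted p = 3.60e-04). Csf1 had 4535 and 3652 against 2976 and 3170 (0.40 ± 0.10, adjusted p = 0.00285). Neither gene's libraries overlapped between the clones. Ccl2 had 195 and 272 in 4T1-E against 856 and 646 in 4T1-T (-1.47 ± 0.20, adjusted p = 1.04e-06), and Cxcl16 had 97.3 and 124 against 408 and 380.5 (-1.43 ± 0.12, adjusted p = 1.38e-10).

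Ccl5, with 167 and 196 in 4T1-E against 396 and 254 in 4T1-T (-0.65 ± 0.18, adjusted p = 0.00504), and Cxcl10, with 106 and 149 against 205 and 195 (-0.49 ± 0.14, adjusted p = 0.00746), were also lower. Ccl7 had a difference of -0.37 ± 0.15 (adjusted p = 0.0592), and Ccl20 was at 0.910 and 3.20 normalized counts in the clones. Without library A of 4T1-E, 3 of the 6 calls were left, and those of Ccl5, Cxcl10 and Csf1 were lost (adjusted p between 0.0636 and 0.177). Ccl5 and Cxcl10 were also lost without library A of 4T1-T.

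In orthotopic tumors, Csf1 stood above every clone. It had 8498 and 8049 normalized counts in the libraries of Tumor_1 and 9148 and 8640 in those of Tumor_2, against 1224 to 7387 with a median of 4058 in the clones. Csf1 was the only gene of the 8 for which both tumors lay above all clones, as was true of 4.09% of all genes, and none of the 8 lay below all clones in both tumors, as 2.05% of all genes did. Its log2 difference, tumors minus clones, was 1.17 ± 0.38 (SE, adjusted p = 0.0726), and its ratio of means was 2.12. Ccl2 had 2142 and 2758 in Tumor_1 and 2470 and 1256 in Tumor_2, against a clone median of 164, so that the tumors lay above all clones but 4T1-G (difference 3.40 ± 1.18, adjusted p = 0.0920). Ccl7 had means of 48.1 and 42.6 in the tumors, also above all clones but 4T1-G, against a median of 4.61 (1.01 ± 0.49, adjusted p = 0.268).

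None of the 8 genes passed the test of tumors against clones, in which 4.15% of all genes were higher and 1.43% lower. Their median difference was 1.17, against 0.037 over all tested genes. Without 4T1-G, Ccl2 (adjusted p = 0.0209) and Ccl7 (adjusted p = 0.0298) passed, and without 4T1-Q or 4T1-V, Csf1 did (adjusted p = 0.0484 and 0.0393). Clone 4T1-G was the highest clone for Ccl2 and Ccl7, and 4T1-Q and 4T1-V were the highest and lowest for Csf1. Leaving out such a clone lowers the spread of the clones, so these passes add no support. Cxcl16 had 1788 and 1770 normalized counts in the tumors against a clone median of 441, Cxcl10 had 361 and 265 against 78.8, Ccl5 had 489 and 526 against 147, and Ccl20 had 22.1 and 24.3 against 3.18. For each of these, the tumors fell within the range of the clones. Cx3cl1 had 613 and 567 against 787. Of 10 tested macrophage and monocyte markers, 6 were also higher in the tumors than in the clones, with Lyz2, the macrophage lysozyme, at 517 and 337 normalized counts against at most 6.48. Over the clones alone 6 of the 10 passed the filter, and the rest were tested only through the tumors. Of the tested fibroblast markers 4 of 5 and of the endothelium markers 2 of 3 were higher too, and the part of all these cells in the chemokine levels was not tested. Over the clones alone, 4 fibroblast markers and 1 endothelium marker passed the filter. In bulk specimens, fewer cells of a type and less RNA per cell cannot be told apart.

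In lung metastases, Cxcl10 rose. It had 455 and 504 normalized counts in the libraries of Lung_1 and 1135 and 874 in those of Lung_2, against 29.0 to 721 with a median of 78.8 in the clones. Lung_2 lay above every clone, and Lung_1 above all but 4T1-G. The log2 difference was 2.20 ± 0.56 (SE, adjusted p = 0.00653), and Cxcl10 was the only 1 of the 8 genes to pass, where 11.5% of all genes were higher and 5.94% lower. Without Lung_2 it no longer passed (1.72 ± 0.77, adjusted p = 0.278). Ccl5 had 602 and 632 in Lung_1 and 698 and 850.1 in Lung_2, against 19.3 to 547 in the clones. Both metastases lay above every clone, as did 8.83% of all genes, and none of the 8 genes lay below every clone in both metastases, as 5.7% of all genes did. The difference of Ccl5 was 1.76 ± 0.64 (adjusted p = 0.0566). With the A libraries alone Ccl5 did not pass. With the B libraries alone, which lack the deviating A libraries, it did (adjusted p = 0.0437), a small step across the threshold. It also passed when any of 4T1-A, 4T1-F, 4T1-N or 4T1-W was left out (adjusted p between 0.0402 and 0.0472). These were the clones with the most Ccl5, so leaving 1 of them out widens the difference and adds no support.

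The median difference of the 8 genes was 0.53, against 0.060 over all tested genes, and the monocyte ligands did not pass. Ccl2 had means of 509 and 561 normalized counts against a clone median of 164 (1.56 ± 1.18, adjusted p = 0.388). Ccl7 had 24.3 and 24.5 in the libraries of Lung_1 and 50.5 and 60.2 in those of Lung_2, against 4.61 (0.90 ± 0.50, adjusted p = 0.222). Without 4T1-G, the clone with the most Ccl7, the adjusted p of Ccl7 was 0.0276. Leaving that clone out lowers the spread of the clones, so this pass adds no support. Csf1 had 4088 and 4479 against 4058, and Cx3cl1 had 771 and 519 against 787. Cxcl16 had 233 and 227, against 441. Ccl20 had 2.69 and 2.97 in the libraries of Lung_1 and 3.31 and 2.47 in those of Lung_2, against 3.18. Of 13 tested macrophage and monocyte markers, 10 were also higher in the lung metastases than in the clones, with Lyz2 at 851 and 1831 normalized counts. Over the clones alone 6 of these markers passed the filter, and the rest were tested only through the metastases. The calls of the rest were therefore close to fixed in advance. All 5 tested fibroblast markers and 3 of 4 tested endothelium markers were higher as well, where 11.5% of all genes were. Over the clones alone, 4 fibroblast markers and 1 endothelium marker passed the filter. The part of these cells in the levels of Cxcl10 and Ccl5 was not tested.

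Set against each other, the specimens differed in 6 of the 8 genes. In lung metastases relative to tumors 2 genes were higher, where 16.6% of all 13702 tested genes were, and 4 were lower, where 14.8% were, with a median difference of -0.43 against 0.019 over all tested genes. Cxcl16 had 203 and 263 normalized counts in Lung_1 and 237 and 218 in Lung_2, against 1617 and 1960 in Tumor_1 and 2099 and 1441 in Tumor_2. Both metastases lay below both tumors, as they did for 33.3% of all genes, and their libraries did not overlap. The metastases had 0.129 times the tumor mean (-2.65 ± 0.10 SE, adjusted p = 4.19e-06). Ccl2 had 0.248 times the tumor mean, with 460 to 582 normalized counts over the libraries of the metastases against 1256 to 2758 (-1.84 ± 0.15, adjusted p = 1.30e-04). Csf1 had 0.499 times the tumor mean, with 3434 to 4876 against 8049 to 9148 (-1.004 ± 0.12, adjusted p = 8.21e-04). Ccl20 had 2.47 to 3.31 against 17.1 to 31.1 (-0.75 ± 0.12, adjusted p = 0.00275).

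Cxcl10, with 479 in Lung_1 and 1004 in Lung_2, against 361 and 265 in the tumors (1.03 ± 0.27, adjusted p = 0.0212), and Ccl5, with 617 and 774 against 489 and 526 (0.43 ± 0.13, adjusted p = 0.0321), were higher in the metastases. Both metastases lay above both tumors for these, as they did for 36% of all genes. Ccl7 and Cx3cl1 gave no call, with differences of -0.11 ± 0.18 and 0.10 ± 0.16 and overlapping specimens. The direction of all 6 called genes was the same in both library letters. These calls rest on 2 specimens a side and on the small spread among 4 values. With the B libraries alone only Cxcl16 passed, and in a fit over all 27 clones and specimens, which takes its spread from the clones, 0 were. The calls of Ccl5 and Cxcl10 were also lost when either tumor was left out and with no filter on low values (adjusted p = 0.0834 and 0.114). Ccl5 was lost as well without Lung_2 (0.28, adjusted p = 0.163) and with the A libraries alone (0.21, adjusted p = 0.489). The difference of Cxcl10 ranged from 0.54 to 1.51 when 1 specimen was left out.

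**Figure D4:**
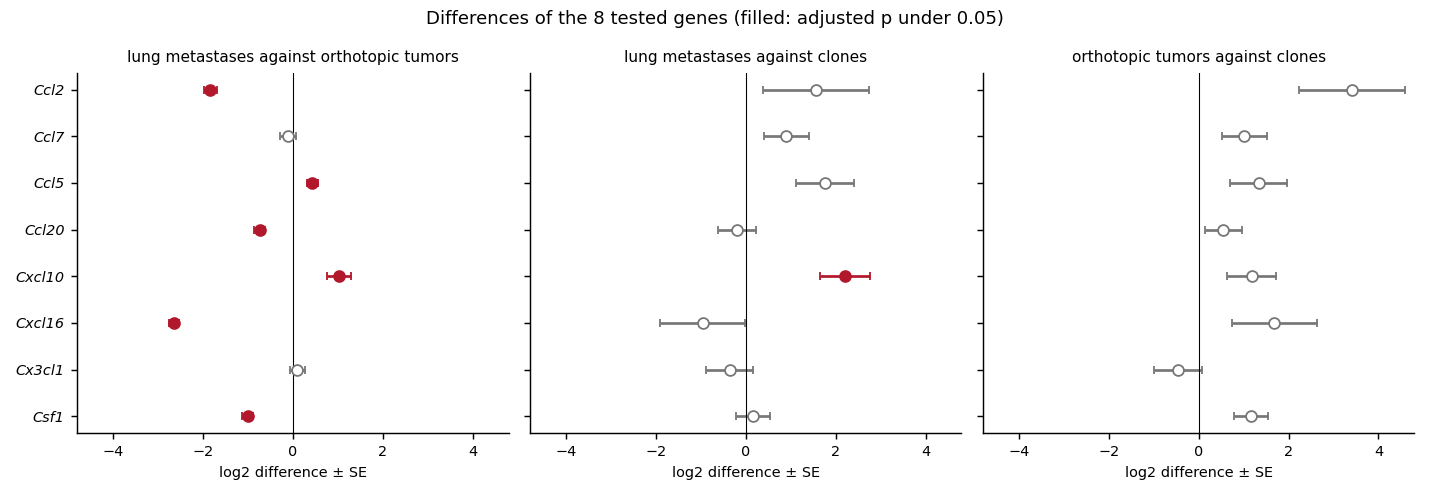
Log2 differences with their SE for the 8 tested genes in 3 comparisons, where the lung and tumor comparisons with clones share the 23 clones; filled red points passed at an adjusted p of 0.05. Cxcl16, Ccl2, Csf1 and Ccl20 lie to the left in lung metastases against tumors and Cxcl10 and Ccl5 to the right, whereas against clones only Cxcl10 in the lung metastases passed.

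Other macrophage values went with this contrast: 6 of 13 tested macrophage and monocyte markers were higher in the metastases than in the tumors and 0 lower, with C1qb at 57.8 and 166 normalized counts against 18.5 and 17.6. Of 5 tested fibroblast markers, 1 was higher, and of 4 endothelium markers 0. Among all tested genes 16.6% were higher, and 1 of 5 is near that share. Of the 5 carcinoma epithelium markers, Epcam (631 and 473 against 3574 and 3173), Cdh1 and Krt19 were lower in the metastases. The part of these cells in the differences of the chemokines was not tested. Ccl2, Cxcl16 and Csf1 were lower in the metastases while macrophage markers were higher there.

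The receptors of these ligands were mostly scarce in clones. Ccr2, for Ccl2 and Ccl7, had at most 6.57 normalized counts in any clone and at most 1.66 in any specimen. Ccr6, for Ccl20, had at most 0.895 in any clone and 0.898 in any specimen. Ccr1, a receptor for Ccl5, had 12.3 and 42.5 in the lung metastases and 6.48 and 1.94 in the tumors. In the clones it had at most 5.85, with 0 reads in 18 of them. It was called higher in the metastases than in clones (adjusted p = 5.29e-08) and in tumors (adjusted p = 0.0309). It passed the filter only through the metastases. Csf1r had 36.2 and 92.5 normalized counts in the lung metastases and 36.1 and 55.5 in the tumors, against a clone median of 7.81, although 4T1-A reached 129. Cxcr3, for Cxcl10, had 240.1 and 149 in the lung metastases and 106 and 99.5 in the tumors, and ranged from 15.2 to 936 in the clones, with 4T1-N highest.

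Cxcr7, which binds Cxcl12 and is also called Ackr3, had 806 and 1489 in the lung metastases and 637 and 684 in the tumors, against 86.7 to 1373 in the clones, although its ligand was barely read. Cxcr4, the other receptor of Cxcl12, had a median of 1.02 and reached 44.5 in 4T1-O. Cxcr6, for Cxcl16, was the receptor that rose in both specimen comparisons, to 24.6 and 31.8 in the lung metastases (adjusted p = 2.81e-04) and 14.9 and 32.9 in the tumors (adjusted p = 0.0289), against a clone median of 7.90. Cx3cr1, for Cx3cl1, had a clone median of 18.8 and was higher in the metastases (43.9 and 50.8) than in the tumors (16.6 and 20.5; adjusted p = 0.00912). In all, 3 of 9 tested receptors were higher in lung metastases than in clones, 1 of 7 in tumors than in clones, and 4 of 8 in lung metastases than in tumors, with 0 lower in each. Over the clones alone 7 receptors passed the filter, so the rest of the 9 entered through the metastases. The shares of all tested genes that were higher were 11.5%, 4.15% and 16.6%, in the same order.

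Among the 29 measured other chemokines and colony-stimulating factors, the genes highest in the tumors were neutrophil attractants. Of 17 tested, 8 were higher in tumors than in clones and 0 lower, with a median difference of 1.39 against 0.037 over all tested genes. Cxcl5 averaged 13776 normalized counts in the tumors against a clone median of 312, Cxcl3 averaged 511 against 11.4 and Cxcl2 averaged 179 against 4.91. In the lung metastases 8 of 18 were higher than in clones, led by Ccl6 (153 against a median of 1.29), Pf4 (95.4 against 0) and Ccl9 (74.5 against 1.92), ligands made by myeloid cells and platelets. Relative to tumors, the metastases had 2 of 18 higher and 8 lower, among them Cxcl5 with 395 against 13776 and Cxcl1 with 255 against 4539. Over all tested genes, 4.15% were higher in tumors and 11.5% in metastases than in clones. Over the clones alone 14 of the 29 passed the filter, so the rest of those tested entered through the specimens. Between the specimens, 16.6% were higher and 14.8% lower in metastases. In 4T1-G, Cxcl5 had 34278 and Cxcl1 had 16207, the highest values of any clone.

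Interferon genes were higher in the lung metastases. There, 18 of its 28 tested interferon genes were higher than in clones and 0 lower, with a median difference of 2.22 against 0.060 over all genes, and Ifi44 averaged 5238 normalized counts against a clone median of 17.6. In tumors 0 of 28 passed either way. Between metastases and tumors, 20 were higher, such as Irf7 (725 against 65.1), and 3 lower, the receptor chains Ifnar2, Ifngr1 and Ifngr2. Ccl5 and Cxcl10 differed in the same direction as most of these genes in the metastases. Between 4T1-E and 4T1-T they did not. There, 8 of the 28 interferon genes were higher in 4T1-E and 1 lower, against 15.3% and 13.4% of all genes. Their median difference was 0.29, while Ccl5 (-0.65) and Cxcl10 (-0.49) were lower. The NF-kB list ran the other way between the specimens, with 3 of 24 higher and 14 lower in metastases and a median difference of -0.53, including Il1a (50.2 against 3033), Vcam1 (913 against 2979) and Tnfaip3 (1476 against 3060). Icam1 (819 against 297), Tnfaip2 and Bcl3 were the 3 that rose. Against clones, 4 of the 24 genes of the NF-kB list were higher in the metastases and 2 in the tumors. The shares of all tested genes higher than in clones were 11.5% in the metastases and 4.15% in the tumors. Between the specimens, 16.6% of all genes were higher and 14.8% lower in the metastases.

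Of the proteases that release or trim these ligands, Adam10 and Adam17 were expressed throughout. Adam10 ranged from 1097 to 3166 and Adam17 from 1610.2 to 4561 normalized counts over the clones, both highest in 4T1-C, and the specimens lay within those ranges. Dpp4, which clips the amino end of Cxcl10 and Cxcl12, had at most 1.75 in any clone or specimen. Of 7 tested enzymes, 2 were higher in lung metastases than in clones, Mmp2 (63.8 against a median of 4.67) and Ctsb (8831 against 5648), and 1, Mmp2, in tumors (28.4 and 32.9). In these comparisons 11.5% and 4.15% of all genes were higher. Mmp9, a gelatinase, was lower in metastases than in tumors (862 against 1416).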

How the data were processed

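The authors deposited a single table, with 23481 genes, 54 libraries and values on a log2 scale. The submitters' processing notes name Bowtie2, HTSeq, DESeq and the build mm10. Tool versions and the strand setting are not given in the sources, so reads of overlapping or antisense genes cannot be told apart. Read from the values, the scale is variance-stabilised, and 5.03 stands for 0 reads. Inverting it gave the normalized counts printed in the text, and whole reads for 100% of the values (within 0.01 of a whole number, or 1e-06 of the value), from which the depths come. Differences and SEs are on the deposited log2 scale, which shrinks differences between low genes. There were 0 columns without a sample. No A library was identical to its B library, and their chi-square per degree of freedom over genes was between 5.01 and 139.4.

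Tests were run in R 4.3.3 with limma 3.58.1 (trend of the variance on the mean, two-sided, Benjamini-Hochberg over all tested genes, threshold 0.05) on genes that reached 10 normalized counts in 2 or more libraries of a comparison. A gene low in the clones could thus enter a test only through the specimens where it was high, and its call there adds little. Clones, tumors and metastases entered as 1 value each, the mean of 2 libraries. The F-test, the rule of at least 11 of 21 clones and the comparison of 4T1-E with 4T1-T used the 46 clone libraries. Tests took the deposited log2 values and not the recovered reads, so no test for counts was run, and log2(normalized count + 1) was an alternative. The procedure was tested on simulated data. Coordinates are from GENCODE vM21 (GRCm38). Intervals for counts of 0 cover counting error only.

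The members and the gene lists were chosen with earlier results of these data known. Named beside the members are called list genes averaging 50 normalized counts or more where higher (the 3 most changed each way), the members' receptors, and the 5 genes most like each member, of which a few are not reported here. Other genes in the text (further cell markers, enzymes and chemokines) were named after their values were seen. The labels do not say whether the letters A and B pair the libraries. Over 253 pairs of clones the A minus B differences correlated with a median of 0.0802 (-0.502 to 0.637), and 113 pairs lay over 0.1. The main tests did not pair the libraries, and the letter entered as a block in an alternative fit.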

Additional observations from a re-analysis of the deposited data

Results flagged for a closer look

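The lung metastases and the orthotopic tumors differed from the same 23 clones by unequal amounts in 6 of the 8 tested genes. The test of that inequality is the test of lung metastases against tumors, which takes its spread from the specimens alone. By it, 16.6% of all tested genes were higher and 14.8% lower in the metastases. In the fit over all 27 clones and specimens, which takes its spread from the clones, 0 of the 8 passed. In log2 units, lung metastases minus tumors, the difference was -2.65 for Cxcl16, -1.84 for Ccl2, -1.004 for Csf1, -0.75 for Ccl20, 1.03 for Cxcl10 and 0.43 for Ccl5. Cxcl16 had opposite signs against the clones in the kinds of specimen, -0.97 ± 0.94 (SE) in the lung metastases and 1.68 ± 0.94 in the tumors, and neither of these passed. Ccl20 likewise had -0.20 ± 0.42 in the lung metastases and 0.55 ± 0.42 in the tumors. Each kind had 2 specimens.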

How the results depend on the processing

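Over 848 recomputed differences of single genes between groups, 841 kept their direction. The 7 others belonged to genes without a call: between intravasating and other clones, Cx3cl1 (-0.048 without 4T1-E, in a range of -0.048 to 0.65 over the clones left out) and Csf1 (0.095 without 4T1-T, range -0.30 to 0.095). Between 4T1-E and 4T1-T it was Ccl20 (0.24 without library A of 4T1-T, range -0.39 to 0.24). Between lung metastases and tumors they were Ccl7 (0.17 without Lung_1, range -0.39 to 0.17, and 0.056 with B libraries only) and Cx3cl1 (-0.16 without Lung_1, range -0.16 to 0.35, and -0.22 with A libraries only). For tumors against clones, the number of the 8 genes called was 0, and 1 when scaled by total reads (Csf1). The number of all genes called was 775, 2300 with no filter and 192 with A libraries only. Scaling by total reads moved the median difference of all genes there to 0.14, against 0.037, and for lung metastases against clones to 0.18, against 0.060. For lung metastases against clones, 1 of the 8 genes was called, 2 with total-read scaling and 2 with B libraries only. With no filter Cxcl12 entered the test, and 3 of the 9 genes were called, Cxcl10, Ccl5 and Cxcl12. All genes called were 2466, 7978 with no filter and 1451 with B libraries only. For lung metastases against tumors, 6 of the 8 were called, 1 with B libraries only and 0 in the fit over 27 clones and specimens. All genes called were 4305, 2645 with no filter, 2848 with A libraries only, 325 with B libraries only and 151 in that fit. Apart from these settings, the cause of the changes was not tested.

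Leaving out 1 clone, specimen or library at a time gave these ranges. Between intravasating and other clones, 0 to 4 genes were called (4 without 4T1-E, 1 without 4T1-T). Between 4T1-E and 4T1-T, 3 to 6 of the 8 genes and 2535 to 3042 of all genes were called, against 6 and 3919. By the rule of at least 11 clones, 1 to 4 of the 8 were called. In tumors against clones 0 to 2 of the 8 and 73 to 1001 of all genes were called, with 238 without Tumor_1 and 73 without Tumor_2. In lung metastases against clones 0 to 2 of the 8 and 413 to 2670 of all genes were called, with 746 without Lung_1 and 413 without Lung_2. In lung metastases against tumors 4 to 6 of the 8 and 1317 to 4650 of all genes were called, with 1317 without Tumor_1 and 1561 without Tumor_2. With the library letter as a replicate block, which does not mark a known pairing, 6 of the 8 genes and 4207 of all genes were called between 4T1-E and 4T1-T, 3 and 555 by the rule, and 8 and 13066 among the clones, and no call among the 8 genes changed. Depth limits Cxcl12, Ccl20 and Ccl7, which had few or 0 reads in many clones.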
